A study of Homo sapiens with 18 samples.

Results

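The 10 genes described here are the 4 cAMP-specific PDE4 phosphodiesterases (PDE4A, PDE4B, PDE4C and PDE4D) and 6 genes known to be switched on by cAMP signalling (NR4A1, NR4A2, NR4A3, CREM, SIK1 and RGS2). They were found by gene symbol among the 40916 symbols counted in each library, and all 10 were listed. They were selected on measured values: they were chosen by the levels of PDE4B and PDE4D in these libraries, which were higher in mixed cultures than the monocultures would give. That contrast is therefore described without a test, and the tests below concern irradiation within each kind of culture and the difference between the lines.

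Polyadenylated RNA was sequenced from 6 groups of 3 libraries, which the series text calls biological replicates. MCF10A, a mammary epithelial line that is not transformed, expressed a histone H2B-GFP reporter and was grown in F12:DMEM with horse serum, EGF, hydrocortisone, insulin and 100 ng/mL cholera toxin. HCT116, a line from a colorectal carcinoma, was unlabelled and p53-null, and was grown in McCoy's 5A with fetal bovine serum. The mixed cultures are described as holding both lines at 50-50, and their medium is not stated. Cultures of each kind received either no irradiation (NIR) or 10 Gy (IR). The titles place all samples at day 2 and the series text places the harvest at 72 h after irradiation, and the counts cannot settle which holds. Line and medium go together in the monocultures, so their parts in a difference between the lines cannot be told apart. Between mixed cultures and HCT116 alone, the parts of the unstated medium and of the second line cannot be told apart either.

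Cyclic AMP is made by adenylyl cyclases when a receptor activates the stimulatory G protein, and it is broken down by phosphodiesterases, of which PDE4 is a cAMP-specific family. It activates protein kinase A, which phosphorylates the transcription factor CREB, and CREB binds the cAMP response element of target promoters. Some targets act back on the pathway: certain PDE4 transcripts, the CREM repressor ICER, the kinase SIK1, which holds CREB coactivators in the cytoplasm, and RGS2, which restrains G protein signalling. Cholera toxin locks the stimulatory G protein in its active state, and it is a usual part of MCF10A medium.

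The libraries held 25.7 to 40.8 M counts (M is 1000000). Levels are given as CPM, a gene's counts per 1000000 counts of the library. Of the counts from 1 to 10, 68.3% were even, so counting intervals were not taken from the counts. As a check of the labels, the summed level of 10 basal mammary markers was 8399 to 8954 CPM in MCF10A NIR and 681 to 750 CPM in HCT116 NIR. Of 10 colorectal markers, 4 reached 1 CPM in HCT116 NIR and 2 had no counts there (CDX1 and CEACAM5). CDKN1A, which encodes the cell-cycle inhibitor p21, rose after irradiation in all 3 kinds of culture, for example from 318 ± 39.3 to 1593 ± 90.2 CPM in HCT116. These are bulk samples, in which fewer cells of a type and less RNA per cell cannot be told apart.

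The promoters below show where the cAMP response element stands in the genes whose values are described next. The windows are RefSeq promoters of GRCh38.p14, printed 5′ to 3′ on the gene's strand and ending 10 bases after an annotated transcription start. The motifs searched were the full element TGACGTCA, which reads the same on both strands, and its core TGACG, or CGTCA on the other strand, which the full element contains. Capitals mark these motifs. PDE4A lies on chromosome 19, plus strand (chr19:10416523-10416782), and its full element ends close to the start. CREM lies on chromosome 10, plus strand (chr10:35195652-35195911). This window belongs to a start inside the gene, and its full element begins 50 bases before that start. NR4A3 lies on chromosome 9, plus strand (chr9:99821635-99821894), and its window holds 4 core motifs. PDE4D lies on chromosome 5, minus strand (chr5:59587616-59587875), and this is its only window of 8 with a core motif.
PDE4A: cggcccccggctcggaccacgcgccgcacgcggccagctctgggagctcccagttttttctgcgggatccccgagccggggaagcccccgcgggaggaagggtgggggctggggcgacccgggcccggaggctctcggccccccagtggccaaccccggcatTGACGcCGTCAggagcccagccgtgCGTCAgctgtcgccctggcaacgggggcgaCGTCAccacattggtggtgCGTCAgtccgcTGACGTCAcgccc
CREM: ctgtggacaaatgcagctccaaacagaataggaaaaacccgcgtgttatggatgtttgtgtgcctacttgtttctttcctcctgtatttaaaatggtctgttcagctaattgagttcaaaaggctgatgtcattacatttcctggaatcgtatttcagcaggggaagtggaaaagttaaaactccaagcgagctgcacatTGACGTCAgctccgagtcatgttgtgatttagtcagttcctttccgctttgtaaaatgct
NR4A3: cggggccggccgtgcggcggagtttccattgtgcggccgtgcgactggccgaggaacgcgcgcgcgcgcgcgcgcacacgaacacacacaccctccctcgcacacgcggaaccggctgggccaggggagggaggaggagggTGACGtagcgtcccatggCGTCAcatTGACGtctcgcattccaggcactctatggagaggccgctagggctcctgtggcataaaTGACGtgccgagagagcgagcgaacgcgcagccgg
PDE4D: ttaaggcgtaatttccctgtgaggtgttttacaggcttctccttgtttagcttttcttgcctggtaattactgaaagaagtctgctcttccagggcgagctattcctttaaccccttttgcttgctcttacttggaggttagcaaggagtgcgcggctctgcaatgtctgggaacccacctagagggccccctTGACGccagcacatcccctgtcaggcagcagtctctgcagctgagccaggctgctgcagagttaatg

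Over the full 300-base windows, 9 of the 10 genes had 35 annotated windows in the table. The full element was in 3 of the 35, of which 1 was a PDE4A window and 2 were overlapping CREM windows that hold the same site. Among all 34943 windows it was in 1.84%. The core motif was in 9 of the 35 windows (25.7%), against 24.5% of all windows. No window of PDE4B (0 of 6) or NR4A1 (0 of 2) held these letters. SIK1 and RGS2 had 1 window each, with a core motif in both. A match describes the letters of the window and is no measure of binding.

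PDE4A was close to absent from MCF10A and well expressed in HCT116. Its levels in MCF10A NIR were 0.353, 0.282 and 0.273 CPM, and in HCT116 NIR they were 54.5, 54.5 and 56.1 CPM. The 2 lines did not overlap under either treatment. The log2 difference, HCT116 minus MCF10A, was 7.29 in NIR and 7.55 in IR by edgeR's quasi-likelihood fit. Under each treatment 1 MCF10A library reached the level that the low-count filter asks for. PDE4A thus passed that filter through its HCT116 libraries, so these tests are not read. After irradiation HCT116 held 50.5 ± 3.07 CPM and mixed cultures 57.9 ± 2.08 CPM, against 61.1 ± 2.46 CPM in mixed NIR (SD, n = 3). Neither change passed the edgeR test: the log2 change was -0.12 (SE 0.0717, adjusted p = 0.17) in HCT116 and -0.10 (SE 0.0664, adjusted p = 0.209) in mixed cultures. PDE4A was too low in MCF10A for its irradiation test.

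PDE4B, the PDE4 gene best known from inflammatory cells, followed the same order of lines at a smaller distance. MCF10A NIR held 7.44, 6.39 and 7.28 CPM, and HCT116 NIR held 70.2, 63.4 and 60.5 CPM. After irradiation the levels were 9.22, 8.54 and 7.91 CPM in MCF10A and 47.4, 52.1 and 50.2 CPM in HCT116. Every irradiated HCT116 library was thus below every non-irradiated one, and every irradiated MCF10A library was above its non-irradiated ones. The HCT116 fall passed the edgeR test, with a log2 change of -0.37 (SE 0.0733, adjusted p = 0.000195). The MCF10A difference of 0.26 (SE 0.138) did not, with an adjusted p of 0.113 by edgeR. It passed with upper-quartile scaling (0.34, adjusted p = 0.0354) and when all 18 libraries shared 1 edgeR fit (0.25, adjusted p = 0.0317). In mixed cultures PDE4B went from 104, 94.6 and 103 CPM to 74.9, 84.6 and 80.3 CPM. Those groups did not overlap, and the log2 change was -0.35 (SE 0.0647, adjusted p = 0.000102, edgeR). The difference between the lines was 3.00 (SE 0.0941) in NIR and 2.32 (SE 0.0937) in IR, with edgeR adjusted p-values of 4.72e-15 and 9.47e-18.

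PDE4D, the longest of the 4 genes, ran the other way and was the main PDE4 transcript of MCF10A. Its levels were 98.9, 87.6 and 94.1 CPM in MCF10A NIR and 68.4, 64.7 and 66.6 CPM in MCF10A IR. The groups did not overlap, and the fall of 0.51 on the log2 scale (SE 0.0548) had an adjusted p of 5.55e-09 by edgeR. HCT116 NIR held 6.74, 2.39 and 2.32 CPM, and HCT116 IR held 0.792, 1.91 and 1.63 CPM. Replicate 1 of HCT116 NIR stood above the other two, and all irradiated libraries were below all non-irradiated ones. The log2 change in HCT116 was -1.39 (SE 0.367, adjusted p = 0.00279), and without that replicate it was -0.70 (adjusted p = 0.111), both by edgeR. KRT5, a basal keratin that MCF10A holds at 2883 ± 133 CPM (SD, n = 3), was at 0.289 CPM in that replicate. The basal factor TP63 had no counts in it. In mixed cultures the levels were 11.8, 13.2 and 10.8 CPM in NIR and 5.73, 8.87 and 6.49 CPM in IR. They did not overlap, and PDE4D fell by 0.79 on the log2 scale (SE 0.153, adjusted p = 0.000198, edgeR). Between the lines the log2 difference, HCT116 minus MCF10A, was -4.78 (SE 0.218, adjusted p = 9.4e-13) in NIR and -5.73 (SE 0.14, adjusted p = 1.58e-22) in IR by edgeR.

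PDE4C had no counts in any of the 6 MCF10A libraries and stayed under 1 CPM everywhere. HCT116 NIR held 0, 0.186 and 0.253 CPM, and HCT116 IR held 0.64, 0.196 and 0.117 CPM. Set against a floor of 3 counts over the 3 MCF10A libraries, the pooled HCT116 level was 4.54 times that floor in NIR and 9.51 times it in IR. These rest on 13 and 32 HCT116 counts. With counts divided by 2, the ratios were 2.27 and 4.76. They leave out the error of the HCT116 counts and the spread between libraries, so they are no lower bounds. Mixed NIR libraries held 0, 0.0577 and 0.0556 CPM, which is 4 counts in all. Mixed IR libraries held 0.539, 0.508 and 0.442 CPM, which is 54 counts in all. The groups did not overlap. Of the tested comparisons, PDE4C passed the filter on low counts only in that of irradiation in mixed cultures, and there through its IR libraries alone, so that test is not read and no fold is given.

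**Figure D1:**
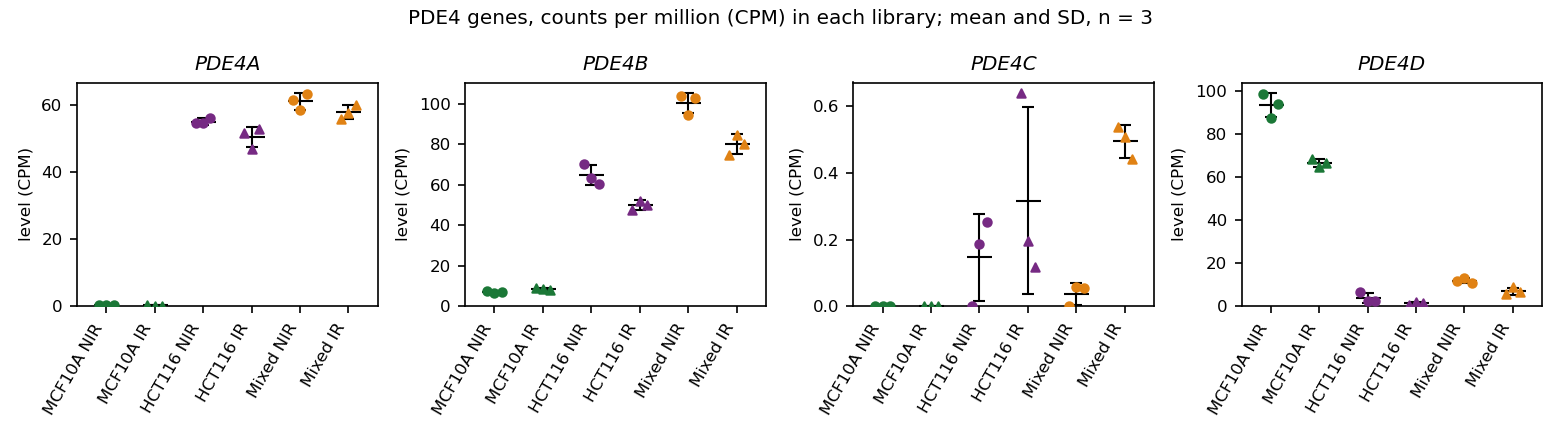
Levels of the 4 PDE4 genes in each library, in CPM on a linear axis with its own range per gene. Points are libraries (circles NIR, triangles IR), and bars are the mean and SD of 3 libraries. PDE4A and PDE4B are high in HCT116 and mixed cultures, PDE4D is high in MCF10A, and PDE4C stays under 1 CPM.

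Levels of different genes were compared per kilobase of annotated exon (GENCODE release 29). On that scale PDE4D made up 87.0% ± 0.287 of the summed PDE4 level in MCF10A NIR, and PDE4B made up 12.3% ± 0.315 (SD, n = 3). In HCT116 NIR the shares were 51.7% ± 2.56 for PDE4A, 46.7% ± 1.87 for PDE4B and 1.44% ± 0.893 for PDE4D. The lines thus held different PDE4 genes as their main transcripts, and this held after irradiation, when PDE4D was 79.9% ± 1.31 of the sum in MCF10A and PDE4A 56.2% ± 2.48 in HCT116. In mixed NIR libraries PDE4B took 53.9% ± 0.689 and PDE4A 42.7% ± 0.508, and in mixed IR libraries PDE4B took 50.1% ± 1.08 and PDE4A 47.2% ± 1.53. The summed level was 6.60 ± 0.413 CPM per kilobase in MCF10A NIR, 16.0 ± 0.626 in HCT116 NIR and 21.5 ± 0.858 in mixed NIR. The count tables do not separate transcripts, so the long and short PDE4 isoforms are not told apart.

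The NR4A genes encode orphan nuclear receptors that are early targets of CREB and of many other stimuli. All 3 were higher in HCT116 than in MCF10A. NR4A1 was at 0.676, 1.07 and 1.16 CPM in MCF10A NIR and at 25.2, 17.8 and 25.3 CPM in HCT116 NIR. NR4A2 was at 1.56, 2.93 and 1.91 CPM in MCF10A NIR and at 30.4, 23.9 and 21.97 CPM in HCT116 NIR. The lines did not overlap in either gene or under either treatment. The log2 differences between the lines by edgeR were 4.36 (SE 0.207) in NIR and 3.49 (SE 0.169) in IR for NR4A1, with adjusted p-values of 1.64e-12 and 4.38e-16. For NR4A2 they were 3.36 (SE 0.191) and 3.31 (SE 0.127), with edgeR adjusted p-values of 2.06e-11 and 2.95e-18. NR4A3 differed by 2.74 (SE 0.264, adjusted p = 6.6e-10) in IR by edgeR. In NIR it passed the low-count filter through its HCT116 libraries alone, so that test is not read.

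NR4A3 rose after irradiation in HCT116 and mixed cultures, and it was close to absent from MCF10A NIR. MCF10A NIR held 0.0588, 0.113 and 0 CPM, which is 6 counts in all, and MCF10A IR held 0.882, 0.73 and 0.706 CPM. HCT116 went from 4.28, 1.74 and 2.17 CPM to 4.66, 6.46 and 7.07 CPM, and mixed cultures went from 1.29, 1.85 and 1.20 CPM to 4.17, 4.94 and 4.47 CPM. In each kind of culture all irradiated libraries were above all non-irradiated ones. By edgeR the log2 change was 1.15 (SE 0.258, adjusted p = 0.000661) in HCT116 and 1.62 (SE 0.235, adjusted p = 6.64e-06) in mixed cultures. In MCF10A it passed the low-count filter through its IR libraries alone, so that test is not read.

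NR4A2 also rose after irradiation in HCT116, to 31.7, 33.4 and 35.0 CPM, and in mixed cultures, from 18.5, 21.7 and 17.5 CPM to 26.3, 24.9 and 24.9 CPM. Neither pair of groups overlapped. The log2 change by edgeR was 0.40 (SE 0.102, adjusted p = 0.00216) in HCT116 and 0.37 (SE 0.0963, adjusted p = 0.0029) in mixed cultures. In MCF10A it was of the same size, 0.40, with a larger error (SE 0.267, adjusted p = 0.206, edgeR). There the groups overlapped, and without MCF10A NIR replicate 2 the value was 0.72 (adjusted p = 0.0364).

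NR4A1 showed no change that was stable to leaving out 1 library. Its log2 change by edgeR was 0.63 (SE 0.369, adjusted p = 0.151) in MCF10A and -0.17 (SE 0.122, adjusted p = 0.251) in HCT116. Without HCT116 NIR replicate 2 the latter was -0.33 (adjusted p = 0.0255). Mixed cultures held 11.3, 17.8 and 16.1 CPM in NIR and 20.5, 19.0 and 18.1 CPM in IR, which do not overlap. Their log2 change of 0.32 (SE 0.129) was just called, with an adjusted p of 0.0489 by edgeR. Leaving out mixed NIR replicate 1 gave 0.14 (adjusted p = 0.32) and leaving out replicate 3 gave 0.35 (adjusted p = 0.0507). Leaving out mixed IR replicate 1, 2 or 3 gave 0.26, 0.31 or 0.36, with adjusted p-values of 0.162, 0.111 and 0.0568. DESeq2 gave an adjusted p of 0.0862.

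CREM encodes activating and repressing CREB-family factors, ICER among them, which a count per gene does not separate. Its level differed little between the lines. MCF10A NIR held 18.8, 19.4 and 16.5 CPM, and HCT116 NIR held 18.8, 16.9 and 17.2 CPM, with overlap. The log2 difference of -0.25 (SE 0.105, adjusted p = 0.0394, edgeR) was lost in 8 of 13 alternatives, among them upper-quartile scaling (-0.05, adjusted p = 0.691). Leaving out MCF10A NIR replicate 1 or 2 gave adjusted p-values of 0.0805 and 0.107, and leaving out HCT116 NIR replicate 2 or 3 gave 0.123 and 0.0676. The edgeR fit with replicate number as a block gave 0.0628. In IR the difference was -0.49 (SE 0.105, adjusted p = 0.000182, edgeR), with HCT116 at 14.9, 14.1 and 15.7 CPM below MCF10A at 17.7, 16.9 and 18.5 CPM. CREM fell in mixed cultures, from 19.3, 17.2 and 13.5 CPM to 12.1, 12.6 and 13.7 CPM, groups that overlap by 1 library. That log2 change was -0.41 (SE 0.121, adjusted p = 0.00828, edgeR), and -0.31 (adjusted p = 0.0532) without mixed NIR replicate 1. The changes in MCF10A (-0.07, SE 0.0979, adjusted p = 0.585) and HCT116 (-0.24, SE 0.106, adjusted p = 0.0596) were not called by edgeR.

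SIK1 was the other cAMP-responsive member that was lower in HCT116 under both treatments. A near-identical gene copy, SIK1B (GENCODE release 29, GRCh38, chr21:6111134-6123739), is not among the listed symbols, so SIK1 counts are uncertain. MCF10A NIR held 7.35, 6.90 and 7.28 CPM and HCT116 NIR held 3.62, 3.36 and 2.53 CPM, without overlap. The log2 difference by edgeR was -1.37 (SE 0.188, adjusted p = 3.28e-06) in NIR and -1.39 (SE 0.197, adjusted p = 6.2e-07) in IR. Irradiation gave no called change by edgeR: 0.13 (SE 0.151, adjusted p = 0.476) in MCF10A, 0.18 (SE 0.231, adjusted p = 0.532) in HCT116 and 0.44 (SE 0.211, adjusted p = 0.0914) in mixed cultures. The mixed value was 0.57 (adjusted p = 0.0459) without mixed IR replicate 3. Without MCF10A IR replicate 2, the highest of its group at 9.92 CPM, the MCF10A value turned to -0.06 (adjusted p = 0.8). Without HCT116 IR replicate 3 the HCT116 value was -0.01 (adjusted p = 0.984).

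RGS2 moved in opposite directions in the lines. In MCF10A it went from 16.9, 16.4 and 16.9 CPM to 24.6, 30.2 and 25.1 CPM. In HCT116 it went from 37.8, 32.3 and 26.8 CPM to 23.1, 21.9 and 22.6 CPM. Mixed cultures moved with HCT116, from 40.7, 47.1 and 36.1 CPM to 30.2, 32.5 and 30.7 CPM. None of these pairs of groups overlapped. By edgeR RGS2 rose by 0.65 on the log2 scale (SE 0.095, adjusted p = 1.25e-06) in MCF10A and fell by 0.51 (SE 0.104, adjusted p = 0.000214) in HCT116 and by 0.43 (SE 0.0894, adjusted p = 0.000358) in mixed cultures. The order of the lines turned accordingly. HCT116 minus MCF10A was 0.75 (SE 0.109, adjusted p = 6.38e-06) in NIR and -0.47 (SE 0.0957, adjusted p = 8.99e-05) in IR, by edgeR.

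**Figure D2:**
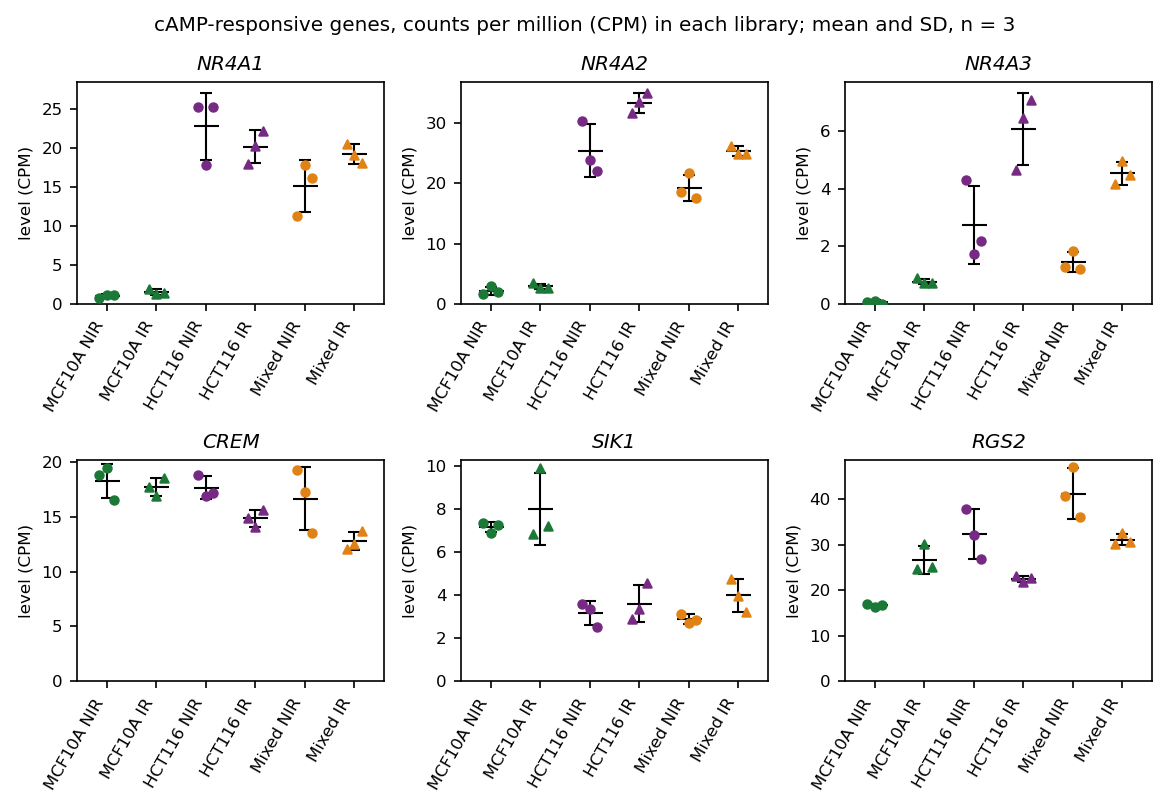
Levels of the 6 cAMP-responsive genes in each library, in CPM on a linear axis with its own range per gene. Points are libraries (circles NIR, triangles IR), and bars are the mean and SD of 3 libraries. The NR4A genes are low in MCF10A, CREM lies between 12.1 and 19.4 CPM in every library, SIK1 is highest in MCF10A, and RGS2 is higher in IR than in NIR in MCF10A and lower in the other cultures.

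The members called are counted here without those that had no library of 1 group at the low-count filter level. Such members had to differ, and they are NR4A3 in MCF10A irradiation and between the lines in NIR, and PDE4C in mixed irradiation. PDE4A is kept in the counts between the lines. With 1 MCF10A library at that level under each treatment, it too passed through HCT116, and its call there is not read. By edgeR at an adjusted p under 0.05, 2 of the other 7 members tested in MCF10A were called, 1 higher and 1 lower, where 55.4% of all genes tested were called (26.2% higher and 29.2% lower). With upper-quartile scaling 57.5% of the called genes of MCF10A were higher, against 47.4% with TMM scaling. In HCT116 5 of 9 were called, 2 higher and 3 lower, against 52.5% of all genes (25.3% higher and 27.2% lower). In mixed cultures 7 of the other 9 were called, 3 higher and 4 lower, against 49.4% of all genes (24.0% higher and 25.4% lower). Between the lines the other 8 members tested in NIR and all 9 tested in IR were called. HCT116 was higher in 5 and lower in 3 in NIR, against 74.8% of all genes called (38.7% higher and 36.1% lower), and higher in 5 and lower in 4 in IR, against 74.9% (38.1% higher and 36.8% lower). With upper-quartile scaling 62.4% of the genes called between the lines in NIR were higher in HCT116, against 51.8% with TMM scaling, and the median difference of all genes shifted by 0.20 on the log2 scale in NIR and by 0.18 in IR. The direction of these members was the same under every scaling tried. The levels of PDE4B and PDE4D in the mixed and monoculture libraries entered the choice of the members. The irradiation tests, the line comparisons and the test of the response difference below use those same libraries.

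**Figure D3:**
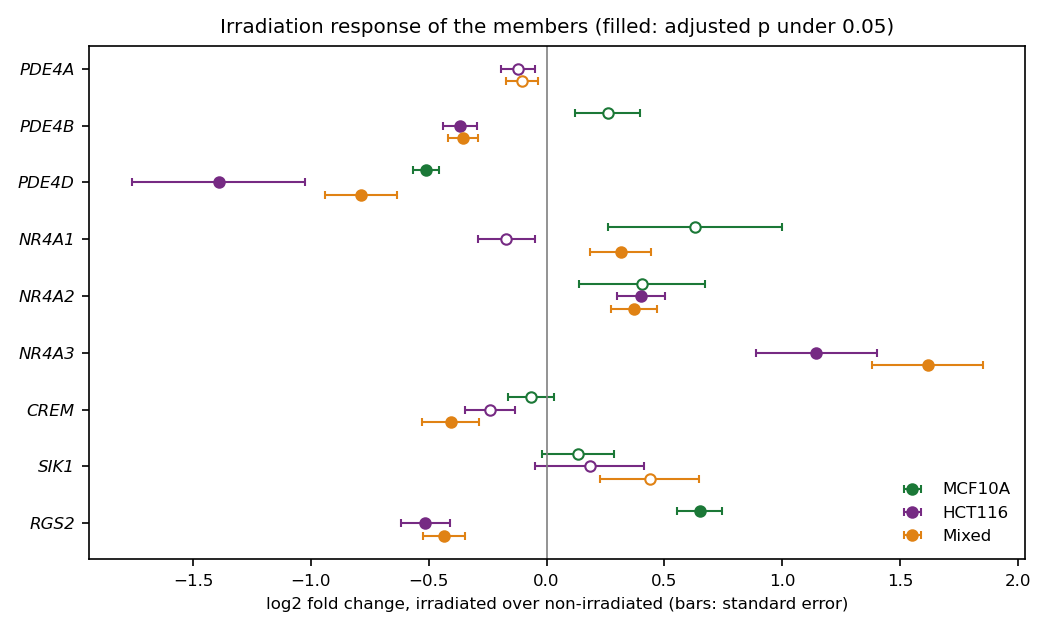
Irradiation response of each member as the edgeR log2 fold change (IR over NIR) with its standard error, in MCF10A, HCT116 and mixed cultures. Filled points have an adjusted p under 0.05. PDE4B, PDE4D and RGS2 fall in HCT116 and mixed cultures, NR4A3 rises in both, and RGS2 rises in MCF10A. PDE4C, and NR4A3 in MCF10A, are left out because they passed the low-count filter through 1 group alone.

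Whether the lines responded differently was tested over the 12 monoculture libraries. By edgeR 5 of 9 members tested were called, all with a lower response in HCT116, against 37.3% of all genes called (15.4% higher and 21.9% lower). The difference, HCT116 minus MCF10A, was -1.24 (SE 0.15, adjusted p = 2.91e-07) for RGS2 and -0.70 (SE 0.13, adjusted p = 0.000106) for PDE4B. RGS2 and PDE4B were called in all 19 alternatives. NR4A3 is among the 5 called, with a difference of -2.50 (SE 0.716, edgeR). It rests on few counts and on the MCF10A response that is not read above, so its call is not read either. The median over the 9 members was -0.70, beside -0.10 over all genes tested.

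NR4A1 and PDE4D were less stable. The response difference of NR4A1 was -0.88 (SE 0.296, adjusted p = 0.0207, edgeR). Leaving out MCF10A NIR replicate 1, MCF10A IR replicate 1 or HCT116 IR replicate 2 gave -0.67, -0.58 and -0.78, with adjusted p-values of 0.0932, 0.175 and 0.0573. For PDE4D it was -0.97 (SE 0.343, adjusted p = 0.0273, edgeR), and without HCT116 NIR replicate 1 it was -0.25 (adjusted p = 0.45). Leaving out HCT116 IR replicate 1 gave -0.68 (adjusted p = 0.14). Leaving out MCF10A IR replicate 1, 2 or 3 gave -0.85, -0.88 and -0.87 (adjusted p = 0.0737, 0.0623 and 0.0754). DESeq2 gave an adjusted p of 0.27 for PDE4D. PDE4A (0.25, SE 0.397), CREM (-0.25, SE 0.142), NR4A2 (-0.07, SE 0.241) and SIK1 (-0.03, SE 0.278) were not called, with edgeR adjusted p-values of 0.699, 0.176, 0.866 and 0.966.

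The mixed libraries were mostly HCT116 RNA. From genes specific to 1 line, the share of MCF10A RNA was estimated at 0.498, 0.368 and 0.395% in NIR and at 1.24, 1.17 and 1.27% in IR. A gene was specific to a line when its mean there was at least 20 CPM and no library of the other reached 1 CPM. Non-negative least squares over all genes gave 0.524, 0 and 1.89% in NIR and 0.0348, 1.63 and 1.78% in IR. The shares are of RNA and not of cells, and they lie far from the 50% that the series text describes.

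PDE4B and PDE4D were chosen for being higher in mixed cultures than the monocultures would give. PDE4B was 1.55-fold higher in mixed cultures than in HCT116 alone in NIR and 1.60-fold higher in IR. Each time all 3 mixed libraries were above all 6 monoculture libraries of that treatment. Of all genes, 3.91% lay above all 6 in NIR and 7.9% in IR. PDE4D was 3.13-fold higher in NIR and 4.87-fold higher in IR than in HCT116 alone. In NIR the nearest libraries were the mixed one at 10.8 CPM and HCT116 NIR replicate 1 at 6.74 CPM. At the estimated share, the monocultures would give 4.19 CPM of PDE4D in NIR and 2.24 CPM in IR, and the mixed cultures held 11.9 ± 1.24 and 7.03 ± 1.64 CPM (SD, n = 3). A share of 9.05% MCF10A RNA in NIR and 8.58% in IR would give those levels. No share gives the PDE4B level, which is above both monocultures.

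Most basal markers, like PDE4D, were higher in mixed cultures than in HCT116 alone. Between mixed NIR and mixed IR they went apart: PDE4D fell and the mean level of each marker rose. The monocultures showed the same. In HCT116 alone PDE4D fell from 3.82 to 1.44 CPM and the mean level of each marker rose. In MCF10A PDE4D fell from 93.5 to 66.5 CPM and the mean level of each marker but KRT5 rose. Of the 10 basal mammary markers, 7 were higher in every mixed library than in every HCT116 library in NIR, 1 (CDH3) was lower and 2 (KRT14 and ITGB4) overlapped. In IR 7 were again higher, CDH3 was lower, and KRT5 and ITGB4 overlapped. Of the 10 markers, 8 were at least 10-fold higher in MCF10A than in HCT116 under both treatments, the exceptions being ITGB4 and CDH3. For each of the 8, the excess over HCT116 gives a share of MCF10A RNA, and that share of the MCF10A level of PDE4D can be set beside the PDE4D excess. The 8 shares correspond to 0.0197 to 0.993 CPM of PDE4D in NIR and 0.0282 to 1.41 CPM in IR, lowest by KRT5 in both. The measured PDE4D excess over HCT116 was 8.12 CPM in NIR and 5.58 CPM in IR. The 10-fold limit was set after the levels were seen. The summed level of the 10 basal markers was 638 to 741 CPM in mixed NIR beside 681 to 750 CPM in HCT116 NIR. In IR it was 1392 to 1630 CPM in mixed cultures beside 1242 to 1445 CPM in HCT116. Most of these sums came from ITGB4 and CDH3, which HCT116 itself expresses. They were at 477 and 196 CPM in HCT116 NIR and at 460 and 160 CPM in mixed NIR. Of the 10, 7 reached 1 CPM in mixed NIR and 4 in HCT116 NIR, and in IR 10 did in mixed cultures and 7 in HCT116. The part of MCF10A RNA in the PDE4B and PDE4D levels was not tested beyond these values.

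Among the other members, PDE4A was 1.11-fold higher in mixed NIR and 1.15-fold higher in mixed IR, without overlap. RGS2 was 1.28-fold higher in NIR, with overlap, and 1.38-fold higher in IR, without overlap. NR4A2 was lower in both, at 0.757 of the HCT116 level in NIR and 0.76 in IR, without overlap. NR4A1 (0.663 and 0.955 of the HCT116 level) and NR4A3 (0.528 and 0.746) overlapped under both treatments, as did SIK1 (0.915 and 1.11). PDE4C, with 4 counts in mixed NIR and 54 in mixed IR, overlapped too, at 0.258 of the HCT116 level in NIR and 1.56 times it in IR. CREM overlapped in NIR at 0.945 and was lower without overlap in IR at 0.859. Of the 9 members past the low-count filter in NIR, 3 were higher without overlap and 1 was lower, where 8.5% of all genes were higher and 10.9% lower (19.4% in either direction). Of the 10 in IR, 4 were higher and 2 lower, where 14.0% of all genes were higher and 10.8% lower (24.7% in either direction). The rule used this contrast, so nothing is read from these counts. The direction of PDE4D, NR4A1, NR4A2 and NR4A3 against the expected level turned in NIR when the share was set to 50% in place of the estimate, and in IR that of PDE4D, NR4A2 and NR4A3 did.

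**Figure D4:**
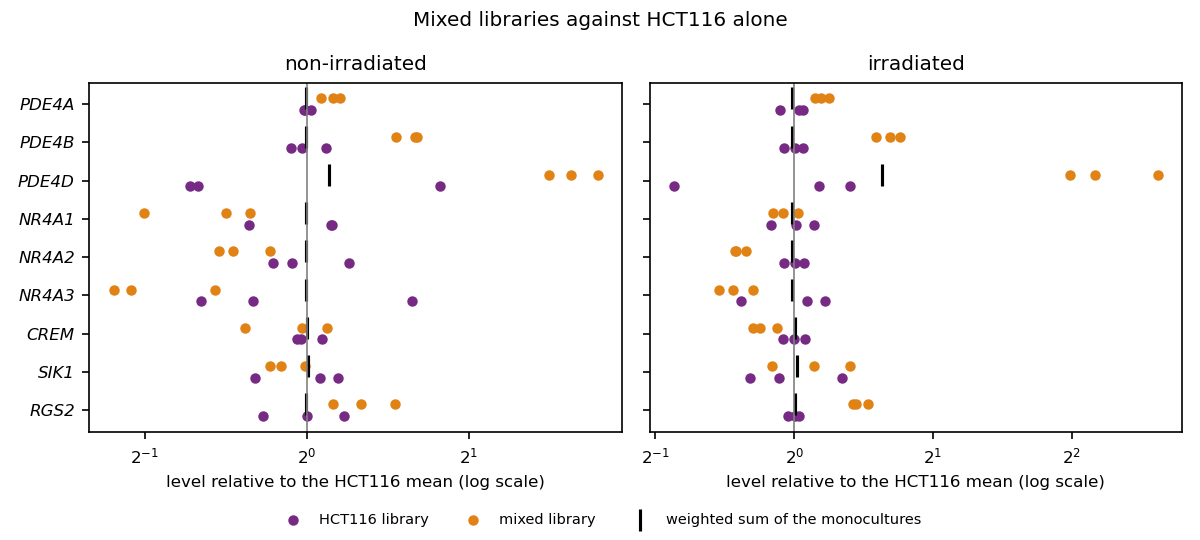
Levels of 9 members in each HCT116 and mixed library, divided by the HCT116 mean of the same treatment, on a log scale. Black marks give the level expected from the monocultures at the estimated share of MCF10A RNA. All mixed libraries of PDE4B and PDE4D lie to the right of all HCT116 libraries and of the expected level, and those of NR4A2 lie to the left. PDE4C is left out because of its low counts.

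PDE4B and PDE4D had like profiles over the 12 HCT116 and mixed libraries, and both were chosen for being high in mixed cultures. The correlation of their log2(CPM + 0.5) values was 0.966, the highest for PDE4B among 13948 genes and the highest for PDE4D too. After PDE4D the genes most like PDE4B were KATNAL1 (r = 0.954), MSRB3 (r = 0.946), ANTXR1 (r = 0.938) and SPTBN1 (r = 0.929). After PDE4B those most like PDE4D were DENND5B (r = 0.939), DST (r = 0.928), B4GALT1 (r = 0.923) and KATNAL1 (r = 0.922). These are descriptions over libraries that fall into 4 groups. KATNAL1, which encodes a microtubule-severing enzyme subunit, held 50.2 CPM in HCT116 NIR, 68.9 in mixed NIR, 32.2 in HCT116 IR and 53.2 in mixed IR.

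The rest of the pathway was followed in a list of 87 genes in 9 roles, from receptors to targets. In MCF10A 24 of 72 tested genes rose and 16 fell, which is 55.6% called beside 55.4% of all genes. In HCT116 11 of 75 rose and 34 fell, 60% beside 52.5% of all genes, of which 25.3% rose and 27.2% fell. In mixed cultures 10 of 75 rose and 23 fell, 44% beside 49.4% of all genes. Their median log2 change was 0.09, -0.26 and -0.12, beside 0.00, 0.01 and 0.01 over all genes. With upper-quartile scaling 71.4% of the called genes of the list in MCF10A were higher, against 60% with TMM scaling. In the direct test of the response difference, 35 of 80 were called with a lower response in HCT116 and 8 with a higher one, where 37.3% of all genes were called (21.9% lower and 15.4% higher). The median was -0.38 beside -0.10 over all genes. Between the lines, HCT116 was higher in 32 of 76 and lower in 30 in NIR, and higher in 24 of 75 and lower in 37 in IR. That is 81.6% and 81.3% called, beside 74.8% and 74.9% of all genes. Unlike the member counts, those of this list keep genes that passed the low-count filter through 1 group alone. Examples are ADCY4 in NIR, without counts in MCF10A, and PPARGC1A in IR, without counts in HCT116. The shares over all genes keep such genes too, so nothing is read from the size of the counts between the lines. With upper-quartile scaling 62.5% of the list's called genes in NIR were higher in HCT116, against 51.6% with TMM scaling.

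Upstream of cAMP, the 5 G protein alpha genes were all called in the response difference, with a lower response in HCT116, where 21.9% of all genes were. In HCT116 4 of the 5 fell, where 27.2% of all genes did, and in MCF10A 3 rose and 1 fell, where 26.2% rose and 29.2% fell. GNAS, which encodes the stimulatory subunit, changed by 0.17 in MCF10A (adjusted p = 0.000234) and by -0.53 in HCT116 (adjusted p = 5.21e-08), both by edgeR. Among receptors that raise cAMP, 5 of 11 fell in HCT116 and 1 rose, where 27.2% of all genes fell and 25.3% rose. In MCF10A 2 of 10 rose and 3 fell, where 26.2% rose and 29.2% fell. In the response difference 6 of 12 were called, 5 of them lower in HCT116, beside 37.3% of all genes. The receptor gene that rose in HCT116 was ADORA2B, an adenosine receptor, which was at 37.0 ± 3.90 CPM in HCT116 NIR and 70.3 ± 2.13 CPM in HCT116 IR (0.93, SE 0.0793, adjusted p = 8.75e-10) and fell in MCF10A from 32.0 ± 1.89 to 22.6 ± 1.35 CPM (SD, n = 3, edgeR). In mixed cultures ADORA2B rose by 0.72 (SE 0.0742, adjusted p = 5.64e-08). Of 6 adenylyl cyclases 4 rose and 1 fell in MCF10A, where 26.2% of all genes rose, and 1 rose and 4 fell in HCT116, where 27.2% fell. The VIP receptor gene VIPR1 was at 13.3 ± 1.48 CPM in HCT116 IR and 0.390 ± 0.233 CPM in MCF10A IR (SD, n = 3). It passed the low-count filter there through its HCT116 libraries, so that test is not read.

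Of 11 other phosphodiesterases that degrade cAMP, 9 were called between the lines in NIR (81.8%, beside 74.8% of all genes), 6 higher in HCT116 and 3 lower. In the response difference 3 of 11 were called (27.3%, beside 37.3% of all genes). PDE3B was at 24.5 ± 2.96 CPM in HCT116 NIR and 0.244 ± 0.0585 CPM in MCF10A NIR (SD, n = 3). In IR it was at 18.0 ± 1.95 CPM in HCT116 and 0.288 ± 0.226 CPM in MCF10A. It passed the low-count filter through its HCT116 libraries, so its tests between the lines are not read, though it is among the 9 called. PDE3A reached at most 0.0563 CPM in MCF10A NIR, and PDE1C at most 0.0579 CPM in HCT116 NIR. Both passed that filter in NIR through 1 line alone. Such genes had to differ, so nothing is read from the size of the count of 9. Of the 10 tested in HCT116 5 fell after irradiation by edgeR, where 52.5% of all genes were called (27.2% lower). PDE2A fell in HCT116 from 11.6 ± 0.922 to 6.98 ± 0.593 CPM and rose in MCF10A from 0.427 ± 0.225 to 1.64 ± 0.659 CPM (SD, n = 3, edgeR). Its response difference was -2.68 (SE 0.382, adjusted p = 3.77e-06, edgeR).

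Among the effectors, PRKAR2B, a regulatory subunit of protein kinase A, fell from 56.0 ± 2.17 to 15.2 ± 2.54 CPM in HCT116 (SD, n = 3). Its log2 change was -1.88 (SE 0.0999, adjusted p = 2.96e-13) in HCT116 and -1.55 (SE 0.0903, adjusted p = 8.56e-12) in mixed cultures, by edgeR. The catalytic subunit gene PRKACB fell by 0.81 in mixed cultures (SE 0.0697, adjusted p = 4.26e-09, edgeR). RAPGEF3, the gene of the cAMP-gated exchange factor EPAC1, rose from 17.5 ± 2.59 to 40.6 ± 2.79 CPM in MCF10A (1.19, SE 0.0927, adjusted p = 9.54e-12, edgeR). It was lower in HCT116 NIR, with a difference of -3.38 (SE 0.177, adjusted p = 6.67e-12, edgeR). The anchoring protein gene AKAP12 was abundant in HCT116, at 4896 ± 278 CPM in NIR beside 80.8 ± 4.09 CPM in MCF10A. It rose after irradiation by 0.48 in HCT116 (SE 0.0507, adjusted p = 3.66e-08) and by 0.56 in mixed cultures (SE 0.0541, adjusted p = 2.32e-08), by edgeR. In MCF10A, AKAP7 fell by 1.03 (SE 0.138, adjusted p = 3.32e-07) and AKAP1 by 0.85 (SE 0.0535, adjusted p = 1.15e-13), as did the CREB-family gene ATF1 by 0.73 (SE 0.0736, adjusted p = 2.06e-09), by edgeR.

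Of 15 further cAMP-responsive targets, 7 of 13 tested rose and 3 fell in MCF10A, where 26.2% of all genes rose and 29.2% fell. In HCT116 3 of 12 rose and 7 fell, where 25.3% rose and 27.2% fell. In the response difference 9 of 13 were called lower in HCT116 by edgeR, where 21.9% of all genes were. FOSB, an AP-1 gene, rose in all 3 kinds of culture by edgeR. Its log2 change was 1.48 (SE 0.242, adjusted p = 7.19e-06) in MCF10A, 0.83 (SE 0.169, adjusted p = 0.000234) in HCT116 and 1.07 (SE 0.197, adjusted p = 0.000114) in mixed cultures. FOS fell in HCT116, from 18.3 ± 3.20 to 6.03 ± 1.44 CPM (SD, n = 3; adjusted p = 9.76e-09, edgeR). VGF, a neuropeptide precursor gene, fell there from 80.3 ± 8.09 to 25.6 ± 0.945 CPM (adjusted p = 1.08e-13, edgeR), and the clock gene PER1 fell by 0.86 in mixed cultures (SE 0.106, adjusted p = 7.83e-07, edgeR). SGK1, a kinase gene also known as a glucocorticoid target, rose in MCF10A from 26.8 ± 0.575 to 61.9 ± 2.62 CPM (adjusted p = 1.16e-14, edgeR). PTGS2, which encodes the prostaglandin synthase COX-2, rose in MCF10A from 27.5 ± 1.39 to 60.5 ± 1.19 CPM and fell in HCT116 from 3.02 ± 0.647 to 1.46 ± 0.331 CPM, both by edgeR. DUSP1, a MAP kinase phosphatase gene, was 238 ± 10.2 CPM in MCF10A NIR and 6.67 ± 0.756 CPM in HCT116 NIR. VGF, in contrast, was higher in HCT116 NIR by 5.54 (SE 0.15, adjusted p = 6.32e-16, edgeR).

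**Figure D5:**
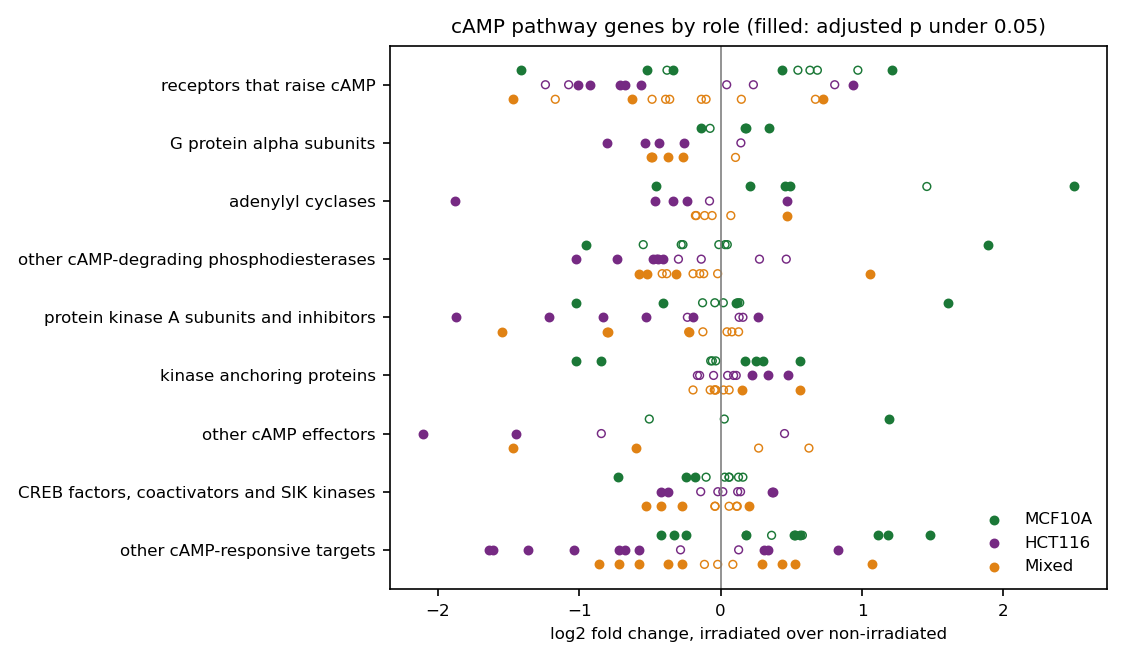
Irradiation response of the cAMP pathway genes by role as the edgeR log2 fold change (IR over NIR), 1 point per gene and kind of culture. Filled points have an adjusted p under 0.05. In HCT116, 4 of 5 G protein alpha genes fell, and in MCF10A 7 of 13 further cAMP-responsive targets rose.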

How the data were processed

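Poly(A)-selected mRNA of 18 cultures was prepared with a stranded kit and sequenced, per the labels' protocols. The submitters' processing notes name fastp, STAR, featureCounts and GRCh38, without versions or settings. The authors deposited raw counts per gene symbol, 1 table per library, without normalization. CPM, fits and ratios were computed here. The 10 genes and all gene lists were chosen with earlier results of these data known.

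Each test used edgeR 4.0.16 in R 4.3.3 on the libraries of the groups compared, with TMM scaling, the filterByExpr filter and the 2-sided quasi-likelihood test. P-values were adjusted by Benjamini-Hochberg over all genes tested, and genes under 0.05 were called. SE is the absolute log2 fold change divided by the root of F. Genes named beside the members were, in each comparison, the 3 called pathway genes with the largest change in each direction at 5 CPM or more in the higher group, and the 5 genes most like PDE4B and PDE4D. GNAS was named after its values were seen. Some genes that this rule names are not reported here. On simulated counts, 2-fold changes were recovered in 81.8% of changed genes for MCF10A irradiation, 81.8% for HCT116, 81.9% for mixed cultures, 75.3% and 77.6% between the lines in NIR and IR, and 68.9% for the response difference. Alternatives were RLE and upper-quartile scaling, DESeq2 1.42.0, no filter, counts divided by 2, 1 fit of all 18 libraries, a replicate block and leaving out each library.

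Between replicates, chi-squared per gene was 4.77 to 14.0, and at least 2.39 with counts divided by 2, so no library repeats another. The labels give no batch or date.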

Additional observations from a re-analysis of the deposited data

Results flagged for a closer look

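These genes had an irradiation response that differed between the lines in the edgeR test of the difference itself over 12 libraries, given as the log2 response of HCT116 minus that of MCF10A. Among the members it was -2.5 for NR4A3, -1.24 for RGS2, -0.971 for PDE4D, -0.879 for NR4A1 and -0.703 for PDE4B. The NR4A3 value rests on an MCF10A response that is not read, because of its low counts in NIR. Among the other pathway genes named it was -2.68 for PDE2A, -2.3 for VGF and -2.23 for PTGS2, and 0.8 for AKAP7, 0.82 for AKAP1 and 1.38 for ADORA2B. RGS2, PTGS2, PDE2A and ADORA2B were called in opposite directions in the 2 lines. Among the members, PDE4D and NR4A1 lost the call when certain single libraries were left out.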

How the results depend on the processing

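Replicate numbers did not pair the libraries: the correlation of deviations between libraries of the same number was -0.064 to 0.111 over 15 pairs of groups. With the replicate number as a block, 3, 5 and 8 members were called after irradiation in MCF10A, HCT116 and mixed cultures and 5 in the response difference, as without it. These counts and those between the lines include NR4A3 in MCF10A and between the lines in NIR, PDE4C in mixed cultures, and PDE4A between the lines. Those members passed the low-count filter through 1 group. Between the lines, 8 members were called in NIR, where CREM was lost, and 9 in IR.

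Leaving out 1 library at a time, 3 to 4 members were called after irradiation in MCF10A, 4 to 6 in HCT116 and 6 to 8 in mixed cultures. Between the lines 8 to 9 were called in NIR and 9 in IR. In the response difference 3 to 5 were called, with 3 when MCF10A IR replicate 1 was left out. Members not overlapping between mixed and HCT116 libraries numbered 4 to 6 in NIR and 6 to 8 in IR. Leaving out 1 library can only add to the genes that do not overlap, whichever genes are counted. The share over all genes is not given for these counts or for the called ranges, so nothing is read from their size.

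Some values that were not called changed sign, and the cause was not tested. CREM in MCF10A was 0.017 with upper-quartile scaling. Without 1 library, SIK1 ranged from -0.056 to 0.232 in MCF10A and from -0.0077 to 0.316 in HCT116. The response difference of NR4A2 was 0.028 with no filter, 0.025 in the fit of all 18 libraries and -0.395 to 0.16 without single libraries. That of SIK1 was 0.066, 0.065 and -0.219 to 0.258, and that of PDE4A was -0.020 to 0.809 without single libraries.

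With the MCF10A share set to 50%, the log2 ratio of the mixed to the expected level in NIR was -2.03 for PDE4D, 0.35 for NR4A1, 0.48 for NR4A2 and 0.0496 for NR4A3. In IR it was -2.27 for PDE4D, 0.48 for NR4A2 and 0.41 for NR4A3. By construction this share puts far more MCF10A RNA into the expected level. PDE4B kept its direction, at 1.48 in NIR and 1.45 in IR. Depth limits PDE4C in every group and NR4A3 in MCF10A NIR, with 6 counts.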
